A study of Larimichthys crocea with 2 samples.

Results

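Alternative last exons are the different 3' terminal exons with which the transcripts of a single gene can end. The set described here holds every reference gene for which the deposited event lists of both libraries gave at least 2 last exons, that is 445 genes with 1027 distinct last exons. These exons filled 964 of 22674 last-exon entries in the control library and 977 of 22746 in the fasted library. The 2 libraries were made from muscle of Larimichthys crocea (large yellow croaker, a farmed marine fish), 1 of an untreated control group and 1 of a group fasted for 21 days. Total RNA was extracted with Trizol and sequenced on an Illumina HiSeq 2500 after TruSeq library preparation, and the labels do not say how many animals entered each library. With 1 library in each condition, no difference below has a replicate check, no p-value can be given, and a difference between the libraries is not shown to be a difference between fed and fasted fish. In bulk tissue, fewer cells of a type and less RNA per cell cannot be told apart.

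The last exon of a messenger RNA carries the end of the reading frame or the 3' untranslated region, and its far end is set by cleavage and addition of the poly(A) tail. A gene can end in an alternative last exon in 3 ways that these lists distinguish by position. A separate upstream exon can be used with its own poly(A) site, the same region can be entered through different splice acceptors, or the boundaries can lie within a few bases of each other. In mammals such choices set the C-terminal end of proteins such as LAMP2 and SERCA2. In muscle they are controlled by the same families of RNA-binding proteins that control internal exons, including muscleblind, CELF and quaking proteins.

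Each last exon was identified by its scaffold, its strand and its inner boundary, the end that adjoins the last intron. Its share was its deposited FPKM (fragment count scaled to feature length and library size) divided by the summed FPKM of all last exons of the gene in that library, so that a difference in overall level or scaling between the libraries cancels. A share difference is the fasted share minus the control share in percentage points, and 20 points was the fixed size at which a difference was counted. The sources used here do not say whether that FPKM measures the last exon itself or the transcripts that end in it, and a share holds for whichever was measured. In the control library, glucose-6-phosphate 1-dehydrogenase LOC104932859 had exons of 16 and 13 bases, each at an FPKM of 0.0133. That is less than 1 whole read on so short an exon would give at this depth. The FPKM of a short exon is therefore not read here as coverage of that exon. The distal exon of a gene is the one whose inner boundary lies farthest downstream.

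Of the 1027 last exons, 914 were listed in both libraries, 50 in the control library only and 63 in the fasted library only. Most genes had few choices: 335 genes had 2 last exons, 90 had 3, 15 had 4, 4 had 5, and a single gene had 7. The outermost inner boundaries of a gene lay a median of 1326 bases apart, with quartiles at 201 and 3478 bases and a maximum of 75945 bases. In 267 genes all last exons were separate from each other, in 113 some overlapped with boundaries more than 10 bases apart, and in 65 the boundaries lay within 10 bases. In 44 of those 65 genes the boundaries were exactly 3 bases apart, and in 53 they were 3, 6 or 9 bases apart. By position, 723 exons lay inside the annotated span of their gene, 254 ran across its edge, and 50 lay wholly outside it.

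Many listed exons had no measured use. Of the 1027 exons, 346 were listed at an FPKM of 0 in both libraries. The summed last-exon FPKM was at least 1 in both libraries for 262 of the 445 genes. In 105 others it was above 0 in both libraries but under 1 in at least 1 of them, and in 78 it was 0 in at least 1 library. A value of 0 can be a failed estimate rather than missing RNA. Among the 55 genes listed at a sum of 0 in the control library, 4 had a gene-level RPKM (read count scaled to gene length and library size) of at least 1, and among the 69 in the fasted library 11 did.

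The 262 genes and their 620 last exons are the basis of the share counts that follow. They carried a median of 292.5 gene-level reads in the control library against 412.5 in the fasted library, with minima of 15 and 29, so that shares of the low genes rest on few reads. Read counts for single exons were not part of the files, so no interval can be given for a share. Gene-level reads summed to 27519918 in the control library against 26593839 in the fasted library. Across the 262 genes the log2 summed last-exon FPKM followed the log2 gene RPKM with a Pearson r of 0.936 in each library, genes not being independent replicates. Myosin heavy chain LOC104940189, a motor protein of fast fibres, departed from this relation with summed FPKM of 158441 and 263087 against RPKM of 1641 and 3089. Its annotated span is short, from base 6 to base 579 of its scaffold NW_011330371.1, and all of the FPKM lay on a last exon of 26 bases in the control library that was 22 bases long after fasting.

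**Figure D1:**
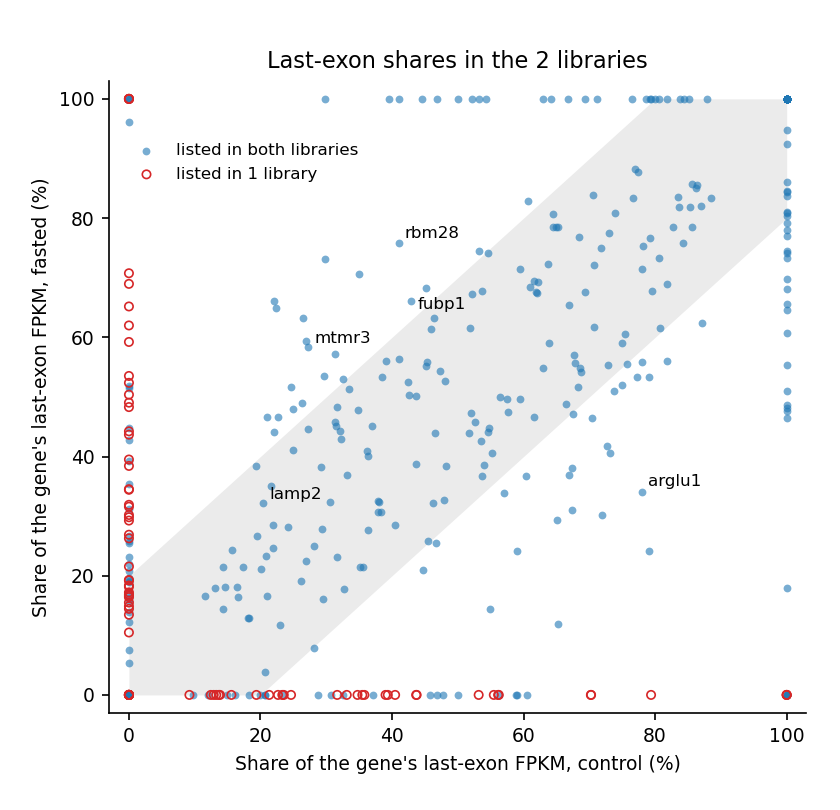
Share of each of 620 last exons in its gene's summed last-exon FPKM, control library on the x axis and fasted library on the y axis, both in percent. Filled points are exons listed in both libraries, open circles exons listed in 1 library, and the grey band holds differences under 20 points; 173 exons lie outside it, many of them on the edges where a share is 0 or 100%.

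Between the libraries, 173 of the 620 last exons (27.9%) differed in share by at least 20 points, 84 with the higher share in the fasted library and 89 with the lower. They belonged to 85 of the 262 genes (32.4%). The exon with the largest share was a different exon in 55 genes (21%), and in 17 of these each library's leading exon held at least 60% of its own library. The largest share difference of a gene had a median of 8.58 points. It was under 5 points in 114 genes, at least 50 points in 29 and 100 points in 8. In 105 of the 262 genes only 1 exon was above 0 in each library, and 6 of these passed 20 points. Where that exon was the same in both libraries, the difference was 0 by construction and shows no stable choice. Among genes with at least 2 exons above 0 in both libraries, 41 (39.8%) passed 20 points. Their largest differences had a median of 15.1 points. At the edge of the counted size, rbm26, an RNA-binding protein, stood at 20.3 points and cysteine string protein LOC104933326, a chaperone of secretory vesicles, at 19.96.

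The distal exon gained at least 20 points in the fasted library in 38 genes (14.5%) and lost at least 20 points in 31 (11.8%). With 0.5 FPKM added to each exon the counts were 31 and 19, and in genes with every exon listed in both libraries 23 and 15. Its mean share was 53.9% in the control library against 56.3% in the fasted library, its median share 60.8% and 56.7%, and the median of its difference was 0. The distal exon held a share above 50% in 151 genes in the control library and in 148 in the fasted library.

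How often a gene was counted moved with 3 features of the lists. Among the 205 genes whose last exons were all listed in both libraries, 39 (19%) passed 20 points, against 46 of the 57 genes (80.7%) with an exon listed in 1 library only. The count also moved with level: 25 of 67 genes (37.3%) passed where the lower of the 2 summed FPKM values was 1 to 2, and 37 of 104 (35.6%) did from 2 to 5. From 5 to 10 it was 13 of 41 (31.7%), and at 10 and above it was 10 of 50 (20%), where the median largest difference was 2.07 points. By position, 34 of 72 genes (47.2%) with overlapping exons passed, against 43 of 156 (27.6%) with separate exons and 8 of 34 (23.5%) with boundaries within 10 bases. Whether an exon that was not listed was not used or not assembled was not tested.

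**Figure D2:**
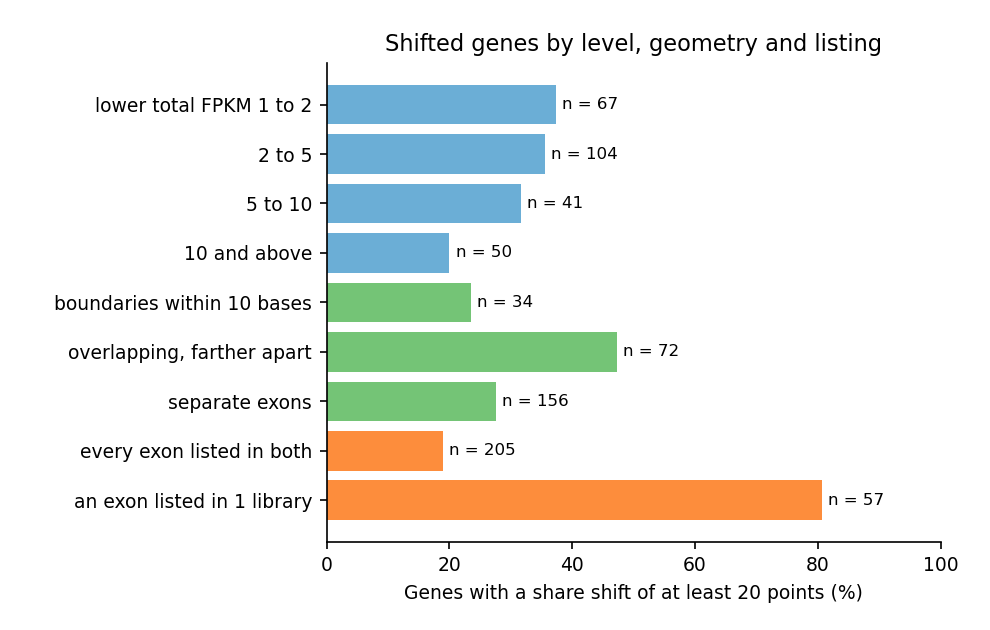
Percent of genes whose largest share difference was at least 20 points, by the lower summed last-exon FPKM of the 2 libraries (blue), by the position of the exons (green) and by their listing (orange), with the number of genes as n. The longest bar is that of the 57 genes with an exon listed in 1 library only, at 80.7%.

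The narrowest view is of the 69 genes whose last exons were all listed in both libraries and of which at least 2 were above 0 in each. This view was chosen after seeing the data. In these genes 14 (20.3%) passed 20 points, and the median largest difference was 10.5 points, with a range from 0.00819 in attractin, a membrane protein, to 44.0 in arglu1. The distal exon had a higher share in the fasted library in 33 of the 69 genes, a lower share in 34 and the same share in 2. Of the 14, the distal exon gained in 5 and lost in 9.

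The largest difference in that view was in a gene of RNA processing. arglu1, an arginine- and glutamate-rich nuclear protein that works in splicing and transcription, has 2 separate last exons on the plus strand of scaffold NW_011322468.1, with inner boundaries at 139120 and 145279. The upstream exon had an FPKM of 3.26 in the control library against 15.03 in the fasted library. The downstream exon had 11.6 and 7.73. The upstream share was thus 22.0% and 66.0%, and the 2 exons exchanged rank between the libraries. The assembled lengths also differed. The upstream exon was 654 bases long in the control library against 2361 in the fasted library, and the downstream exon 1723 and 165. Because FPKM is scaled to feature length, the lengths are not an independent check of the shares.

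In rbm28, a nucleolar RNA-binding protein of ribosome biogenesis, the order was the opposite. Its upstream last exon had FPKM of 1.07 and 2.05 and its distal one 0.743 and 6.45, so that the distal share was 41.0% in the control library against 75.9% in the fasted library. In fubp1, a single-stranded nucleic acid-binding protein, 2 acceptors 416 bases apart lead into a shared end. The upstream one had FPKM of 8.04 and 11.3 and the other 6.05 and 22.0, and the share of the latter was 42.9% and 66.1%. In these genes and in arglu1 every exon in use was listed and above 0 in both libraries.

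Other RNA-binding genes passed 20 points through an exon absent from a list or at 0. hnrnpa0, a nuclear ribonucleoprotein that binds AU-rich elements, had a middle exon of FPKM 22.6 in the control library listed at 0 in the fasted library, and an upstream exon of FPKM 24.7 listed in the fasted library only. Its distal exon had FPKM of 15.7 and 31.8, with shares of 41.1% and 56.3%. THO complex subunit 4-A, an mRNA export adaptor encoded by LOC104920400, had a 21-base exon of FPKM 3.25 in the control library that was listed at 0 in the fasted library. The share of its other used exon was 41.1% and 100%. rbmx, an RNA-binding protein of the hnRNP family, had distal shares of 60.6% and 82.8%, with an upstream exon of FPKM 3.4005 listed in the control library only.

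msi2, a Musashi translational regulator, had its whole control FPKM of 9.93 on 1 exon, which held 69.8% in the fasted library. The remaining 30.2% lay on an exon listed in the fasted library only, with a boundary 3 bases away. phf5a, a subunit of the U2-associated splicing factor complex, had 2 exons listed at the same FPKM of 1.66 in the control library and a single exon at 13.6 in the fasted library. Its boundaries lie 13 bases apart and its control library held 31 reads. The E3 ubiquitin ligase RBBP6, itself a factor of 3' end formation, is a reference entry that joins 2 genes, and its FPKM of 1.14 in the control library lay on 1 exon and its 5.73 after fasting on a distal exon listed in the fasted library only.

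Several other regulators of splicing and polyadenylation differed by less than 20 points. Quaking-B, encoded by LOC104923420, used 3 last exons with shares of 36.3%, 43.6% and 20.1% in the control library and 40.1%, 38.7% and 21.1% in the fasted library. tia1, a stress-granule protein, had distal shares of 70.6% and 72.1%. Musashi-1 LOC104921056 had 86.9% and 82.1% on its distal exon. pabpn1, the nuclear poly(A)-binding protein, had FPKM of 7.36 and 12.3 on its upstream and 8.86 and 9.68 on its distal exon, so that the distal share was 54.6% and 44.1% and the leading exon was not the same. In SFRS15 LOC104923284, a serine- and arginine-rich factor, the distal share was 53.6% and 36.8%.

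Over the RNA-binding, splicing and 3' end list, 12 of the 27 genes that passed the FPKM filter (44.4%) passed 20 points, beside 32.4% of all 262. Where every exon was listed in both libraries it was 5 of 20, beside 19% of 205. The list had 32 genes in all.

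**Figure D3:**
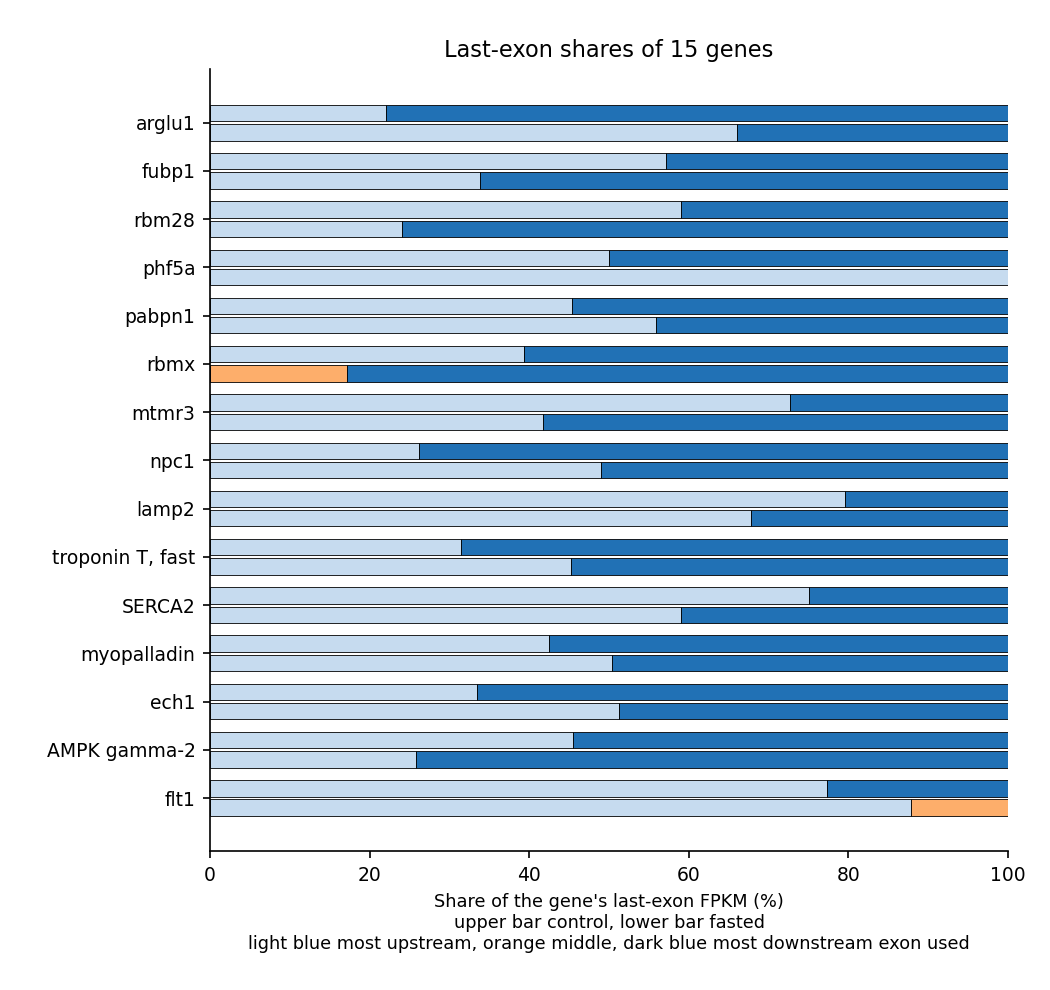
Share of each used last exon in the summed last-exon FPKM of 15 genes (percent), with the control library as the upper bar and the fasted library as the lower. Colours run from the most upstream exon used (light blue) through a middle one (orange) to the most downstream (dark blue); in arglu1 the light part goes from 22.0% to 66.0%, and in rbm28 from 59.0% to 24.1%.

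Of the 5 contractile genes that passed the filter, 0 passed 20 points with exons matched by their inner boundary, beside 32.4% of all 262. All 5 had every exon listed in both libraries, where 19% of 205 genes passed. In tnnc2, capzb and myosin heavy chain LOC104940189 a single exon held the whole FPKM in both libraries. Their difference was therefore 0 by construction, and of the 5 only troponin T differed from 0. Fast skeletal troponin T LOC104930624, the tropomyosin-binding subunit of the troponin complex, had the highest FPKM among genes that used more than 1 last exon. Its upstream exon, with the boundary at 185148 on scaffold NW_011323102.1, had FPKM of 2872 and 2722, and its distal exon, at 187986, had 6256 and 3303. The upstream share was 31.5% and 45.2%, a difference of 13.7 points. The whole gene had 500166 and 275055 reads, but the reads on each of these exons are not known. The upstream exon was assembled 13 bases long in the control library but 42 bases long after fasting. Where exons had to share both ends, these counted as different exons. The value of the control form, -31.46 points, was then its control share with a minus sign by construction. Troponin C tnnc2, the calcium-binding subunit, kept 100% on its distal exon, at FPKM of 10719 and 6981. So did gpd1, glycerol-3-phosphate dehydrogenase, at 837 and 42.7, and ribosomal protein rps24, at 509 and 1444.

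Among Z-disc and cytoskeletal genes 5 of 17 passed 20 points (29.4%), beside 32.4% of all 262. Of the 13 with every exon listed in both libraries 2 passed, beside 19% of 205. Myopalladin mypn, which ties nebulin and actinin at the Z-disc, had 2 acceptors 231 bases apart with FPKM of 11.1 and 22.6 upstream and 15.1 and 22.2 downstream, or an upstream share of 42.5% and 50.4%. lmo7, a LIM domain protein of cell junctions and the sarcolemma, had 44.5% on its distal exon in the control library against 100% in the fasted library, with an upstream exon of FPKM 4.48 listed in the control library only. pdlim5, a PDZ and LIM protein of the Z-disc, had its whole FPKM of 245 and 178 on a middle exon, assembled 707 and 786 bases long, and its distal exon, with a boundary 16052 bases farther downstream, was listed at 0 in both libraries. sept6, a septin of the cell cortex, had an upstream exon of FPKM 2.89 in the control library that was listed at 0 in the fasted library, where its distal exon held 100%. capzb, the beta subunit of the actin capping protein of the Z-disc, is known in mammals for muscle and non-muscle ends, and here a single exon held 100% at FPKM of 177 and 447.

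Calcium-handling genes passed in 3 of 8 cases, beside 32.4% of all 262, and in 0 of the 5 with every exon listed in both libraries, beside 19% of 205. SERCA2, the calcium pump of the sarcoplasmic reticulum in slow fibres and heart, is encoded here by 2 loci. In LOC104931645 the upstream exon had FPKM of 4.14 and 3.87 and the distal exon 1.38 and 2.69, with a distal share of 24.97% and 41.0%. At the other locus, atp2a2, the distal exon held 100% in both libraries, while its FPKM was 11.8 in the control library against 1.53 in the fasted library. Triadin LOC104937741, which anchors calsequestrin to the release channel, had its distal exon at FPKM of 20.7 and 25.8, or 46.8% and 100%, because an exon of FPKM 23.5 was listed in the control library only. Sarcalumenin LOC104925399, a calcium-binding protein of the reticulum, moved its whole FPKM from an exon of 57.6 listed in the control library only to another of 15.1. Its exons spread over 2 annotated genes, so that these values may belong to different genes.

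Lysosomal and membrane-trafficking genes included several with more than 1 exon in use in both libraries. lamp2, a lysosomal membrane protein whose alternative ends in mammals give isoforms with different transmembrane tails, had an upstream exon at FPKM of 11.7 and 27.4 and a distal exon at 2.9995 and 13.04. The distal share was 20.4% and 32.3%, and both exons had the higher FPKM in the fasted library. mtmr3, a phosphoinositide phosphatase of autophagy, had an upstream exon at FPKM of 1.74 and 2.21 and a distal exon at 0.654 and 3.09, so that the distal share was 27.3% and 58.3% and the leading exon differed. npc1, the cholesterol exporter of the lysosome, had 2 acceptors 254 bases apart, and the share of the upstream one was 26.3% and 49.0%, at gene totals of 1.45 and 4.65. stam2, an endosomal sorting adaptor, had boundaries 3 bases apart with 80.7% and 61.5% on the first. TOM1-like protein 2 LOC104918838, a trafficking adaptor, had all of its FPKM of 1.56 on its upstream exon in the control library against all of its 1.89 on its distal exon in the fasted library. Over the autophagy and lysosome list 3 of 7 genes passed 20 points, all 7 with every exon listed in both libraries, where 19% of 205 genes passed.

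The mitochondrial list had 1 of 8 genes past 20 points and the glycolysis list 1 of 4, beside 32.4% of all 262. With every exon listed in both libraries it was 1 of 6 and 1 of 4, beside 19% of 205. The gamma-2 subunit of AMP-activated protein kinase LOC104934537, the nucleotide-sensing subunit of the energy sensor, had a distal share of 54.6% and 74.1%, from FPKM of 3.60 and 4.58 on the distal and 2.99 and 1.60 on the upstream exon. ech1, an isomerase of fatty acid oxidation, had FPKM of 3.73 and 25.3 upstream and 7.41 and 24.1 downstream, or an upstream share of 33.5% and 51.2%. idh3b, a subunit of mitochondrial isocitrate dehydrogenase, had an upstream exon at 20.7% in the control library that was listed at 0 in the fasted library. The 4E-binding protein 1 LOC104920089, a repressor of translation initiation downstream of mTOR, had a single exon in use, at FPKM of 30.02 and 536. S6 kinase beta-1 LOC104930044, a mTOR target counted in the signalling list, had a distal share of 79.3% and 100%.

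Ribosomal protein rpl27 passed 20 points through an exon of FPKM 2025 that was listed in the fasted library only. Its distal exon had FPKM of 180 and 987, or 71.9% and 30.2%. Over the exons listed in both libraries alone, the distal share was 7.61 points higher in the fasted library, so that the direction of the rpl27 difference turned on the exon listed once. The ribosome and translation list had 2 of 10 genes past 20 points, and the proteasome and ubiquitin list 3 of 10, beside 32.4% of all 262. With every exon listed in both libraries it was 1 of 9 and 1 of 8, beside 19% of 205.

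The signalling list of kinases, phosphatases and GTPase regulators had 11 of 23 genes (47.8%) past 20 points, beside 32.4% of all 262, and 7 of 18 with every exon listed in both libraries, beside 19% of 205. rps6ka6, a ribosomal S6 kinase of the RSK family, had FPKM of 1.21 and 2.72 on its upstream exon and 2.26 and 1.13 on its distal exon, or a distal share of 65.1% and 29.4%. map3k5, a stress-activated kinase also called ASK1, had a distal share of 81.9% and 56.0%, with gene totals of 1.43 and 2.02. Protein phosphatase 1 regulatory subunit 12A LOC104927444, the myosin phosphatase targeting subunit, had 29.7% and 100% on its distal exon, with an exon of FPKM 11.3 listed in the control library only. kras and cdc42, small GTPases known in mammals for alternative ends, each kept 100% on a single exon, at FPKM of 22.2 and 21.6 for kras and 22.1 and 16.3 for cdc42.

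The matrix and adhesion list had 6 of 11 genes (54.5%) past 20 points, beside 32.4% of all 262, and 5 of 10 with every exon listed in both libraries, beside 19% of 205. Ephrin type-B receptor 4 LOC104938675, a receptor of vessel patterning, had its whole FPKM of 2.83 on its distal exon in the control library against its whole 2.43 on its upstream exon in the fasted library. Neuropilin-2 LOC104929239, a co-receptor for semaphorins and vascular growth factors, had an upstream exon at FPKM of 2.33 and 5.10 and a distal exon at 0 and 1.85, from 15 and 36 gene-level reads. flt1, vascular endothelial growth factor receptor 1, is known in mammals for a soluble form that ends in an upstream exon, and its most upstream last exon here held 77.3% and 87.8%, at FPKM of 3.08 and 2.20. flt1 is not a member of the matrix and adhesion list. It passed 20 points through its distal exon, which held 22.7% at an FPKM of 0.903 in the control library and was listed there only. Whether that exon encodes a soluble form was not examined. Myelin protein P0 mpz, an adhesion protein of Schwann cells, had a share of 32.1% and 44.3% on the upstream of 2 overlapping exons in use. Transcription factors passed in 5 of 17 cases, beside 32.4% of all 262, and in 1 of 12 with every exon listed in both libraries, beside 19% of 205. Cyclic AMP-dependent factor ATF-7 LOC104931278 had acceptors 27 bases apart with an upstream share of 22.0% and 44.1%. The single ion channel or transporter gene that passed the filter was not counted, the 1 gene of the blood list did not pass the filter, and the fat list had no gene.

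Gene level was compared for the counted genes and the rest. On the log2 scale of RPKM plus 0.5, the fasted library was higher than the control library by a median of 0.48 over 11417 genes, and ratios are given relative to that shift. The 85 counted genes had a median ratio of -0.39, with 9 past 2-fold upwards and 14 downwards. The other 177 genes had a median of 0.09, with 30 upwards and 14 downwards. Over all 11417 genes 16.1% passed 2-fold upwards and 16.6% downwards.

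The outer end of a last exon is where its transcript was assembled to stop. Among the 914 last exons listed in both libraries, 572 (62.6%) had the same outer end, 106 (11.6%) were at least 100 bases longer in the fasted library and 109 (11.9%) at least 100 bases shorter. Within the 534 such exons of the 262 genes past the FPKM filter, 250 (46.8%) had the same end, 17.04% were at least 100 bases longer after fasting and 16.5% shorter. Among 17196 other last exons 70.9% had the same end, 10.6% were longer and 8.35% shorter. These had no FPKM filter, so they compare with the 914 exons and not with the 534. In cdc42 the used last exon was 90 bases long in the control library against 3165 in the fasted library. In uhrf2, a ubiquitin ligase that binds methylated DNA, the distal last exon was 140 and 3131 bases, and in wbp2, a WW domain-binding coactivator, 964 and 3276. In the other direction, the last exon of aes, a Groucho-family corepressor, was 3689 and 228 bases, that of Ras association domain-containing protein 8 LOC104932113 was 3737 and 726, and that of znf609, a zinc finger protein, 2407 and 44. The gene totals of aes were 8.18 and 2.89 and those of uhrf2 2.29 and 3.49. The part of read coverage in these end differences was not tested.

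**Figure D4:**
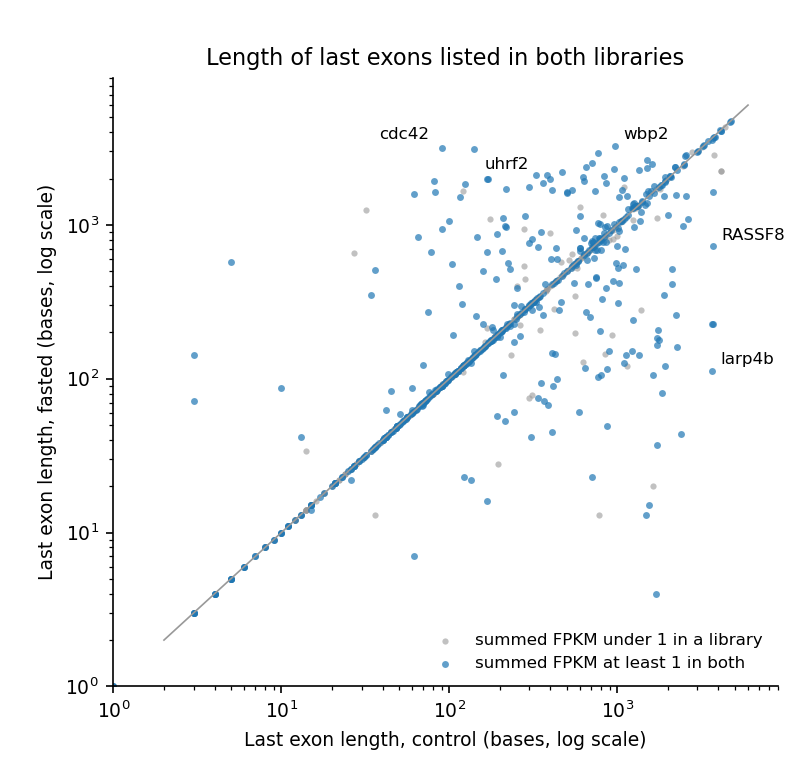
Length in bases of the 914 last exons listed in both libraries, control library on the x axis and fasted library on the y axis, both on log scales, with the line of equal length. Blue points belong to genes with a summed last-exon FPKM of at least 1 in both libraries and grey points to the others; 572 exons lie on the line, and cdc42 is among the farthest above it, at 90 and 3165 bases.

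Alternative first exons, chosen by the same rule, gave 1165 genes, of which 794 passed the same filter. In 452 of these (56.9%) a first exon differed in share by at least 20 points, and the leading first exon differed in 314. The last-exon values of 32.4% of 262 genes stand beside this without a test, since no replicate spread exists for either.

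Levels of the genes that make 3' ends were examined next. The list of 28 genes held cleavage and polyadenylation factors and also U1 small nuclear ribonucleoprotein genes. Of the 28, 23 had a mean RPKM of at least 1, and their median log2 ratio was 0.28 relative to the shift. Among the 23, 2 were at least 2-fold higher and 0 lower. Over all genes 16.1% were higher and 16.6% lower by this size. Without centring, 10 of the 23 were higher and 0 lower, beside 29.7% and 8.88% of all genes. WDR33, which reads the poly(A) signal, had RPKM of 5.99 and 22.2, a centred log2 ratio of 1.32. CPSF4, its partner in signal recognition, had 2.51 and 10.7, a centred log2 ratio of 1.42. Of 59 genes of splicing-regulator families, 48 entered, with 3 higher and 3 lower and a median of 0.09, against 11 and 1 without centring. These were taken by protein name and include general serine- and arginine-rich factors and ELAV-like proteins beside muscleblind, CELF and quaking proteins. The 3 higher were SFRS15 gene8459 at RPKM of 3.94 and 39.4, SFRS19 at 5.65 and 37.0, and RBM24 gene2438, a regulator of muscle splicing, at 84.0 and 416. The second RBM24 locus, gene9146, went the other way at 10.2 and 4.61, as did 2 loci of CELF2, a regulator of splicing and mRNA decay, with centred log2 ratios of -1.16 and -1.21. A second SFRS15 locus, gene7982, had RPKM of 3.24 and 5.13, a centred log2 ratio of 0.11. SFRS15 LOC104923284, whose last exons are described above, had summed last-exon FPKM of 2.78 and 4.05.

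**Figure D5:**
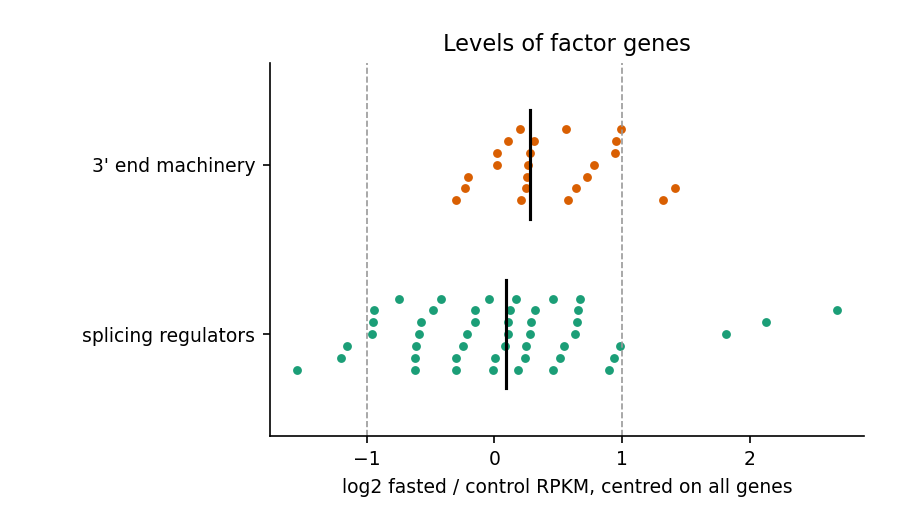
Centred log2 ratio of fasted over control RPKM for each of 23 genes of the 3' end list and 48 splicing-regulator genes. Each point is 1 gene, its height within a row has no meaning, black lines are list medians (0.28 and 0.09) and dashed lines mark 2-fold; 2 points of the upper row and 3 of the lower lie right of the 2-fold line.

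Markers of cell types also differed between the libraries, given here as summed RPKM as deposited, with counts past 2-fold relative to the shift of all genes. By this count 16.6% of all 11417 genes were lower and 16.1% higher, or 8.88% and 29.7% without centring. The hemoglobin list summed to 568 and 44.7, with 8 of 8 genes lower, and the connective tissue list to 701 and 138, with 4 of 4 lower. Slow-fibre markers summed to 1299 and 218, with 7 of 10 lower. Keratin and claudin genes, meant as skin epithelium markers but taken by name alone and not specific to skin, summed to 1960 and 488. Of these, 10 of 17 were lower and 0 higher, or 6 lower and 1 higher without centring, and the 10 included claudin-5 and claudin-11 beside keratins. The fat list summed to 66.1 and 2.43, with CIDE-3, a lipid droplet protein, at 66.1 and 0.203 and leptin, a satiety hormone, at 0 and 2.17. Skeletal muscle markers summed to 416505 and 226247, with 12 of 22 lower and 1 higher, or 8 lower and 4 higher without centring. The part of these differences in the last-exon shares was not tested.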

How the data were processed

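Muscle RNA of 1 control and 1 fasted library was measured. Per the submitters' processing notes, TopHat2 2.0.12, SAMtools 0.1.19 and HTSeq were used. Genome build, annotation, strand setting and the step that gave event FPKM were not given in the sources used. The deposited event lists, made by the authors, give an FPKM for each last exon. The deposited gene table gives RPKM and RPM, and its RPM values came out as whole reads for 100% of values, within 0.1 read.

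Last exons were matched by scaffold, strand and inner boundary, and shares were taken over all last exons of a reference gene, exons listed once counting as 0 in the other library. Genes needed a summed FPKM of at least 1 in both libraries. A difference of 20 points was counted. RPKM ratios used a pseudocount of 0.5, genes with a mean of at least 1, and centring on the median of all genes. Named genes were, at a summed FPKM of at least 5, the 15 largest differences among exons listed in both libraries and the largest of each functional list. A fixed set of muscle genes and the 5 most abundant per library were named too. The fixed-set gene atp2a2, at 1.53 in the fasted library, was below that floor. Of all these named genes, AHNAK, ASH1L, wolframin, sash1, dnajc10, hes4 and ubiquitin-conjugating enzyme E2 N have no description above. Their share differences were, in that order, -37.04, -34.42, 33.21, -29.99, -24.7, -14.5 and 0 points. Genes known in mammals for alternative ends, the genes with at least 2 exons in use in both libraries and the lower-level genes of each list were named after their values were seen. The members and lists were chosen with earlier results of these data known, and list patterns on protein names were written after the files were seen. Members were matched to the gene table by position, 445 of 445, 8 of them to 2 genes. Python 3.11.15 and pandas 2.3.3 were used. How far low read numbers alone can move a share was not tested. The filter, exon identity, exons listed once, pseudocount, position and threshold were each varied. No sequence is printed, as no genome of the files' build was used here.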

Additional observations from a re-analysis of the deposited data

How the results depend on the processing

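No paired analysis was possible because each condition has 1 library, and for the same reason no library could be left out. The main counts were 173 exons, 85 genes, 55 genes with another leading exon, 38 with a distal gain and 31 with a distal loss. Without the FPKM filter there were 269 exons, 130 genes, 87 leading differences, 56 distal gains and 51 distal losses in 367 genes. At a summed FPKM of at least 5 there were 46, 23, 16, 9 distal gains and 8 losses in 91 genes. Leaving out exons listed once gave 88, 44, 33, 25 and 17 in 234 genes. Requiring the same start and end gave 594, 236, 219, 153 and 142, since by construction an exon assembled with another outer end then counts as another exon. A pseudocount of 0.5 FPKM gave 125 exons, 66 genes, 55 leading differences, 31 distal gains and 19 losses in 262 genes. A threshold of 10 points gave 281 exons, 128 genes, 66 gains and 49 losses. One of 30 points gave 112 exons, 60 genes, 25 gains and 17 losses. Genes with every exon listed in both libraries, a choice made after seeing the data, gave 78, 39, 23, 23 and 15 in 205 genes, and those that also had at least 2 exons above 0 in both gave 28, 14, 17, 5 and 9 in 69. Merging boundaries within 10 bases, or keeping exons inside the gene span with 5000 bases added, left every count within 1.5 times.

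Of 16 named genes counted in the main setting, 5 were counted under every alternative at 20 points that gave a value. They were sarcalumenin, AHNAK, hnrnpa0, idh3b and sept6, each with a share of 0 in a library. The other thresholds were not applied to named genes, and at 30 points idh3b, at -20.7, and sept6, at -28.78, would not be counted. The sarcalumenin and AHNAK entries each join 2 annotated genes, and sarcalumenin gave no value over exons listed in both libraries. When the same start and end were required, the control form of an exon assembled with another outer end had a fasted share of 0. Its value was then by construction the control share with a minus sign, which shows no turned direction. It was -29.74 points for LOC104927444, -41.13 for LOC104920400, -44.53 for lmo7, -46.83 for LOC104937741 and -22.02 for arglu1. Among named genes under 20 points in the main setting, the same construction gave -31.46 for LOC104930624, -32.12 for mpz, -80.68 for stam2 and -100 for pdlim5. rpl27 turned to 7.606 over exons listed in both libraries. Of the 3' end genes, 10 were higher as deposited and 7 without the RPKM filter. Of the splicing regulators, 11 were higher as deposited and 6 without the filter, and 1 was lower as deposited and 6 with a pseudocount of 0.1. Where no construction is named, the cause was not tested. Depth limits the low genes most, and exon-level reads were not used here.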
